A study of Drosophila melanogaster with 6 samples.

Results

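The *Mst* genes described here are 10 *Drosophila melanogaster* genes named for male-specific transcripts whose products build the sperm, and they were picked by name from the 17606 genes of the normalized count table. 7 of them, *Mst84Da*, *Mst84Db*, *Mst84Dc*, *Mst84Dd*, *Mst87F*, *Mst98Ca* and *Mst98Cb*, encode proteins of the sperm tail. The other 3, *Mst35Ba*, *Mst35Bb* and *Mst77F*, encode proteins of sperm chromatin. 8 were found by their symbol, and *Mst35Ba* and *Mst35Bb* were found through gene identifiers under their present names *ProtA* and *ProtB*, which are used below. The samples were whole third-instar larvae homozygous for *ecd1*, a temperature-sensitive allele of *ecdysoneless* (*ecd*), and larvae of the control strain *w1118*. Larvae of both genotypes grew at 18°C for 10 days and were then held at 29°C, the temperature at which the mutant protein fails, for 2 days. Total RNA of 8 larvae made up 1 sample, with 3 replicates per genotype and 6 samples in all. Whether male, female or mixed larvae were taken is not stated in the labels or the methods.

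In the fly testis, spermatocytes transcribe most of the genes that a sperm will need before meiosis begins, under a testis form of the MMB complex (tMAC) and a set of testis-specific TAF proteins (tTAFs). Loss of either halts the germ line before the meiotic divisions, which gave these regulators the name meiotic arrest genes. The *Mst* messages are then stored and translated only in elongating spermatids. The tail proteins are short and rich in cysteine, glycine and proline, and they lie along the flagellum. The chromatin proteins replace histones when the spermatid nucleus is compacted: ProtA and ProtB are protamine-like, and Mst77F resembles a linker histone. The testes of third-instar larvae hold spermatocytes, so that whole male larvae contain these messages before any sperm is made.

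The libraries held 78438192 to 118102006 reads in *ecd1* and 74581798 to 107943245 reads in *w1118*, recovered from the normalized counts. About the same number of reads came from each strand (fraction 0.5 to 0.503), so reads of overlapping genes on opposite strands cannot be told apart. The mean insert was 138.7 ± 0.503 bases in *ecd1* and 161.5 ± 1.37 bases in *w1118* (SD, n = 3 each), with no overlap, and the part of this difference in the results was not tested. The message of *ecd* itself, which the *ecd1* point mutation leaves in place and which therefore does not check the labels, averaged 2242 ± 145 normalized counts in *ecd1* and 1738 ± 301 in *w1118* (limma, adjusted p = 0.0769). The eye pigment transporter gene *w*, disrupted in *w1118*, averaged 1877 ± 209 in *ecd1* and 93.2 ± 19.0 in *w1118*. The low level matches the *w1118* label. No label gives the *w* allele of the *ecd1* larvae, and the study lists *w* in the genotype of its *ecd1* line. The part of a difference in genetic background in the results was not tested. The glue protein gene *Sgs3* set *w1118* replicate 1 apart, with 56 to 131 reads in the *ecd1* samples, against 196179 reads in that library and 48 and 50 in the other *w1118* samples. Results are therefore given with and without that library where it matters.

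Both kinds of *Mst* message were lower in *ecd1* larvae. Of the 10 genes, 9 had a mean of at least 10 normalized counts and could be tested, each with a mean above 10 in both genotypes, and all 9 fell in *ecd1* at an adjusted p below 0.05 and by at least 2-fold. Over all 12930 genes tested, 19.1% fell and 14.7% fell by at least 2-fold. In none of the 9 did the genotypes overlap, and over all genes tested 26.9% had every *ecd1* sample below every *w1118* sample. The log2 fold changes, *ecd1* over *w1118* on the log2(normalized count + 1) scale, lay between −4.19 and −1.85 with a median of −2.46, against a median of 0.0075 and a 10th percentile of −1.78 over all genes. Adjusted p-values, from limma with Benjamini-Hochberg adjustment over all genes, lay between 0.00408 and 0.00703. The count stayed at 9 without *w1118* replicate 1, and the median was then −2.52. In whole larvae, fewer spermatocytes and less *Mst* message per spermatocyte cannot be told apart.

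**Figure D1:**
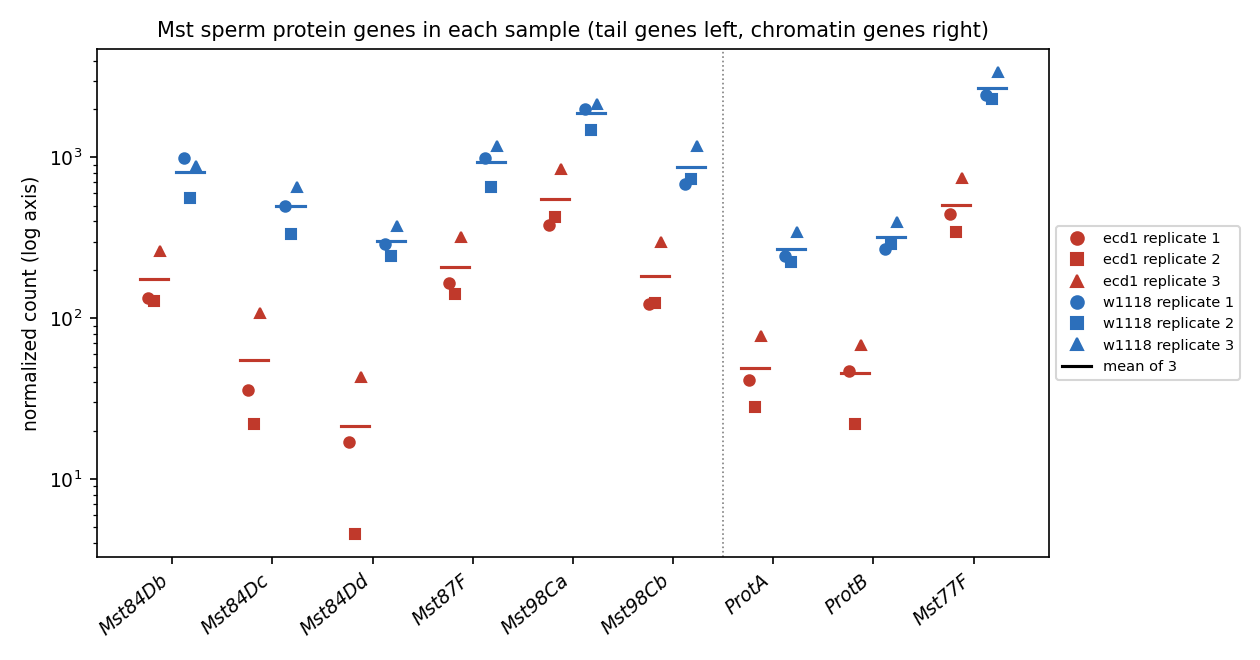
Normalized counts (log axis) of the 9 genes tested in each sample, with 6 sperm tail genes left of the dotted line and 3 sperm chromatin genes right of it; red points are *ecd1* and blue points *w1118*, and a bar marks the mean of 3. Every red point lies below every blue point of the same gene, and *ecd1* replicate 3, the red triangle, is the highest *ecd1* sample for each of the 9 genes.

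The *Mst84D* tail genes lie within a few kilobases of each other on chromosome 3R (dm6 build). *Mst84Db* (3R, 7365160 to 7365627, minus strand, 1 intron) had 134, 128 and 263 normalized counts in *ecd1* replicates 1 to 3, against 995, 561.5 and 885 in *w1118* replicates 1 to 3. Its highest *ecd1* sample thus lay well under its lowest *w1118* sample, and its log2 fold change was −2.25 (SE 0.34; limma, adjusted p = 0.00566). *Mst84Dc* (3R, 7364254 to 7364673, minus strand, 1 intron) had 35.8, 22.2 and 107.1 normalized counts in *ecd1*, against 501.1, 335.0 and 655.7 in *w1118*. *ecd1* replicate 3 was several times higher than the others but still below each *w1118* sample, and the log2 fold change was −3.41 (SE 0.57; limma, adjusted p = 0.00683). *Mst84Dd* (3R, 7363307 to 7363773, minus strand, 1 intron) had 17.0, 4.58 and 42.8 normalized counts in *ecd1*, from 18, 6 and 36 reads, against 290.4, 244.2 and 372.9 in *w1118*. Its log2 fold change of −4.19 (SE 0.70; limma, adjusted p = 0.00681) was the lowest of the 9 and ranked 36 from the bottom of all genes tested.

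The size of the *Mst84Dc* and *Mst84Dd* values rested on single *ecd1* libraries, while their calls did not. Without *ecd1* replicate 3, *Mst84Dc* came to −4.04 and *Mst84Dd* to −4.90, and without *ecd1* replicate 2 *Mst84Dd* came to −3.41. The highest adjusted p of either gene with a library left out was 0.028 (limma).

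*Mst84Da*, the remaining gene of this cluster (3R, 7365850 to 7366262, plus strand, 1 intron), was barely detected in these larvae. It had 0, 1 and 0 reads in *ecd1* and 2 reads in each *w1118* sample, all under the floor of 3 counts, so no fold is given. Of its exon bases, 269 (75.1%) are also exon bases of *MstProx* on the opposite strand, and how the counting treated reads shared by both genes is not stated. *MstProx* itself had 2 to 3 reads in the *ecd1* samples and 4 to 10 in the *w1118* samples.

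*Mst87F*, the founding gene of the tail protein family (3R, 13827151 to 13828008, minus strand, 1 intron), had 166.0, 141.3 and 318.8 normalized counts in *ecd1*, against 997, 651.1 and 1176 in *w1118*. The genotypes did not overlap, and the log2 fold change was −2.22 (SE 0.36; limma, adjusted p = 0.00622). It shares 41 exon bases (6.58% of its exons) with *lncRNA:CR43300* on the other strand, which had at most 6 reads in any sample. *Mst98Ca* (3R, 28291338 to 28292656, plus strand), an intronless gene for a longer tail protein, had 382, 428 and 843.5 normalized counts in *ecd1*, against 2016, 1489 and 2148 in *w1118*. Its log2 fold change of −1.85 (SE 0.32; limma, adjusted p = 0.00703) was the smallest loss among the 9, yet only 1210 of all genes tested (9.36%) were at or below it. *Mst98Cb* (3R, 28292798 to 28293863, plus strand, no intron), which starts 141 bases after the end of *Mst98Ca*, had 122.6, 125.3 and 299.8 normalized counts in *ecd1*, against 685.5, 738.4 and 1178 in *w1118*. It fell by 2.33 on the log2 scale (SE 0.40; limma, adjusted p = 0.00692).

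The genes of sperm chromatin fell to a like extent. *Mst77F* (3L, 20816901 to 20818027, minus strand, 1 intron) had the highest mean per kilobase of exon of all 10 in both genotypes. It had 443.2, 343.7 and 742.4 normalized counts in *ecd1*, against 2445, 2294 and 3386 in *w1118*. The highest *ecd1* sample lay far under the lowest *w1118* sample, and the log2 fold change was −2.46 (SE 0.30; limma, adjusted p = 0.00408). *Mst77F* lies within *Pka-R1*, a protein kinase A subunit gene on the opposite strand, without shared exon bases. *Pka-R1* had a log2 fold change of −0.15 and did not pass (limma, adjusted p = 0.384).

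*ProtA* (2L, 14879050 to 14881652, minus strand, 2 introns) had 41.5, 28.3 and 77.3 normalized counts in *ecd1*, against 245.2, 224.1 and 341.8 in *w1118*. *ProtB* (2L, 14882101 to 14883721, minus strand, 2 introns) had 47.1, 22.2 and 67.8 normalized counts in *ecd1*, against 270.2, 290.2 and 398.3 in *w1118*. *ProtA* fell by 2.54 on the log2 scale (SE 0.39; limma, adjusted p = 0.00575) and *ProtB* fell by 2.89 (SE 0.42; adjusted p = 0.00511). These protamine genes are close copies that lie 448 bases apart, so the division of reads between them is uncertain, while the loss was seen under either name.

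**Figure D2:**
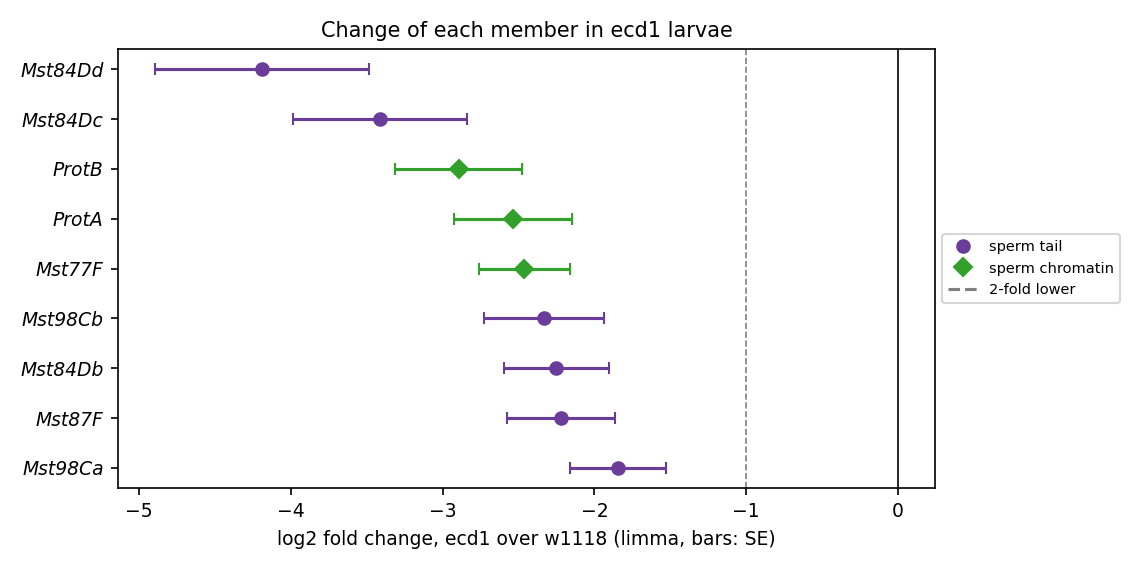
Log2 fold change (*ecd1* over *w1118*) of the 9 genes tested, with bars of 1 SE from limma; purple circles are sperm tail genes, green diamonds sperm chromatin genes, and the dashed line marks a 2-fold loss. All 9 lie left of the dashed line, between −4.19 for *Mst84Dd* and −1.85 for *Mst98Ca*, and the chromatin genes lie inside the range of the tail genes.

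The median log2 fold change was −2.29 over the 6 tail genes tested and −2.54 over the 3 chromatin genes, and the ranges overlapped, since −2.89 to −2.46 lies inside −4.19 to −1.85. The 7 genes tested with an intron had a median of −2.54, and the 2 without one, *Mst98Ca* and *Mst98Cb*, had −1.85 and −2.33. The loss thus reached genes with and without an intron.

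The summed normalized count of all 10 genes was 1389, 1244 and 2763 in *ecd1*, against 8448, 6830 and 10544 in *w1118*, so that the *ecd1* mean was 20.9% of the *w1118* mean. As CPM of all recovered reads this was 14.6, 13.8 and 29.6 CPM in *ecd1*, against 94.9, 77.6 and 119 CPM in *w1118*. Replicates differed in the same manner for nearly all genes. *ecd1* replicate 3 was the highest *ecd1* sample for all 9 genes tested and *w1118* replicate 3 the highest *w1118* sample for 8 of 9, while replicate 2 was the lowest for 7 of 9 in each genotype. In *ecd1*, replicate 3 stood 1.89 to 3.97 times above the mean of replicates 1 and 2 (median 2.08). In *w1118*, the same ratio was 1.14 to 1.65 (median 1.43). The gap between genotypes was still wider, because the lowest *w1118* sample exceeded the highest *ecd1* sample 1.77 times for *Mst98Ca* to 5.70 times for *Mst84Dd* (median 2.90).

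The make-up of the *Mst* reads was compared as the share of each gene, without a test. *Mst98Ca* made up 27.5%, 34.4% and 30.5% of the reads of the 10 genes in *ecd1*, against 23.9%, 21.8% and 20.4% in *w1118*. *Mst84Dc* made up 2.75% ± 1.06 in *ecd1* and 5.69% ± 0.691 in *w1118*, and *Mst84Dd* 1.05% ± 0.610 in *ecd1* and 3.52% ± 0.071 in *w1118* (SD, n = 3 each). The genotypes did not overlap in these 3 shares, which with 3 samples against 3 corresponds to an exact permutation p of 0.1 for a single share, and overlapped in the other 7. The largest of those 7 was that of *Mst77F*, with 28.8% ± 2.72 in *ecd1* and 31.6% ± 2.38 in *w1118* (SD, n = 3 each).

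**Figure D3:**
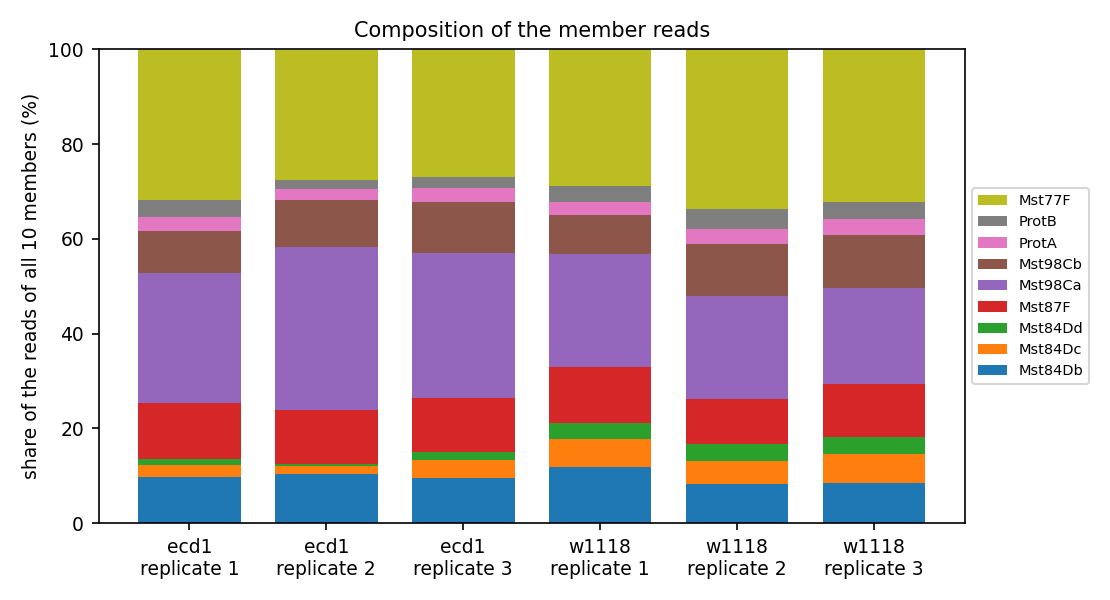
Share of the reads of all 10 genes that each gene held in each sample, in percent, with the *ecd1* samples left of the *w1118* samples (*Mst84Da*, at most 0.0614%, is not drawn). The *Mst98Ca* segment is thicker in each *ecd1* sample (27.5% to 34.4%) than in each *w1118* sample (20.4% to 23.9%), and the *Mst84Dc* and *Mst84Dd* segments are thinner.

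Genes next to each other were compared directly by their ratio in each sample, in 5 pairs. *Mst84Dd* stood at 0.133, 0.0432 and 0.166 of *Mst84Db* in *ecd1*, against 0.293, 0.436 and 0.422 in *w1118*. *Mst84Dc* stood at 0.273, 0.179 and 0.41 of *Mst84Db* in *ecd1*, against 0.504, 0.597 and 0.741 in *w1118*. The log2 differences from *Mst84Db* were −1.94 (SE 0.63) for *Mst84Dd* and −1.16 (SE 0.38) for *Mst84Dc*, and −0.78 (SE 0.33) between *Mst84Dd* and *Mst84Dc*. Each gave p = 0.1 in a two-sided exact permutation test, the smallest that 3 against 3 samples allow, and 0.167 after Benjamini-Hochberg adjustment over the 5 pairs, so none passed. *Mst98Cb* differed from *Mst98Ca* by −0.48 (SE 0.22) and *ProtB* from *ProtA* by −0.36 (SE 0.17), with overlapping ratios and an exact permutation p = 0.2 for either pair.

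Levels were compared between genes per kilobase of exon. In *ecd1* the order of mean normalized counts per kilobase was *Mst77F* (479), *Mst84Db* (422), *Mst98Ca* (418), *Mst87F* (335), *Mst98Cb* (171), *Mst84Dc* (152), *ProtA* (71.8), *ProtB* (67.3) and *Mst84Dd* (51.7), and each gene overlapped the next. In *w1118* it was *Mst77F* (2543), *Mst84Db* (1961), *Mst87F* (1511), *Mst98Ca* (1429), *Mst84Dc* (1370), *Mst98Cb* (814), *Mst84Dd* (729), *ProtB* (471) and *ProtA* (396). Among neighbours in this order, only *Mst84Dd* and *ProtB* were apart beyond the range of their samples. *Mst84Dd* was thus above both protamine genes in *w1118* and had the lowest mean of the 9 in *ecd1*.

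Genes around the *Mst* loci did not all follow them. *CG17944*, next to *Mst84Dd*, and *CG34437*, upstream of *Mst98Ca*, had log2 fold changes of −2.22 (limma, adjusted p = 0.00908) and −2.23 (adjusted p = 0.00227). *CG3618*, next to *Mst77F*, fell by 0.69 (adjusted p = 0.00537). Beyond *Mst87F*, *Nsf2*, a gene of vesicle fusion, had a log2 fold change of 0.28 (adjusted p = 0.0776), and *UQCR-14L*, which lies 184 bases after *Mst98Cb*, had −1.13 (adjusted p = 0.0566), so neither passed.

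Other genes that carry the *Mst* name were set beside the 10. Of 10 listed, 9 were in the table, 6 could be tested and 5 fell, with a median log2 fold change of −1.66. *Mst33A* fell by 2.85 (limma, adjusted p = 0.00511), *Mst89B* fell by 2.12 (adjusted p = 0.00521), *Mst27D* fell by 1.68 (adjusted p = 0.00782), *Mst36Fb* fell by 1.65 (adjusted p = 0.00295) and *Mst36Fa* fell by 1.08 (adjusted p = 0.0131). *Mst85C* was level between the genotypes, with 1077, 1032 and 1015 normalized counts in *ecd1*, against 1119, 1049 and 972 in *w1118*. The accessory gland genes *Mst57Da*, *Mst57Db* and *Mst57Dc* were listed at 0 in all 6 samples. *Mst84B*, which is in neither list, fell by 1.55 (limma, adjusted p = 0.0116).

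The other proteins that enter the spermatid nucleus showed the same direction, with all 4 genes tested fallen and a median of −2.18. *Tpl94D*, a transition protein that sits on DNA between histones and protamines, had 3.77, 5.35 and 124.9 normalized counts in *ecd1*, against 551, 680.6 and 998 in *w1118*. Its *ecd1* message thus came almost wholly from replicate 3, which was also the highest for the *Mst* genes. It fell by 5.53 on the log2 scale (SE 1.19; limma, adjusted p = 0.0134), with −4.88 and an adjusted p of 0.0532 without *ecd1* replicate 2 and −7.04 without *ecd1* replicate 3. The HMG-box genes *tHMG1* and *tHMG2* had log2 fold changes of −2.29 (limma, adjusted p = 0.00559) and −2.07 (adjusted p = 0.00886), and *Prtl99C*, a further protamine-like gene, fell by 1.91 (adjusted p = 0.00702).

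*Mst77F* has copies on the Y chromosome, of which 6 of 18 listed were in the table. *Mst77Y-16Psi* fell by 2.28 (limma, adjusted p = 0.0107) and *Mst77Y-7* fell by 1.99 (adjusted p = 0.0122). *Mst77Y-7* had 17.9, 22.9 and 53.5 normalized counts in *ecd1*, against 115.4, 114.4 and 113.1 in *w1118*, far below *Mst77F* itself. Without *ecd1* replicate 2 only 1 of the 2 passed. Reads may be shared between these copies and *Mst77F*, and the handling of such reads is not stated.

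The *Mst* messages moved together with other messages that spermatocytes make for later use. Of 13 such genes, all 13 fell, with a median log2 fold change of −2.25 and a range from −3.35 for *Pglym87* to −1.20 for *twe*. Named by the size of the change, *Pglym87*, a testis phosphoglycerate mutase, fell by 3.35 (limma, adjusted p = 0.00523), *dj* (*don juan*), a sperm mitochondrial protein gene, fell by 3.02 (adjusted p = 0.00417), *Tektin-A*, for a filament of the axoneme, fell by 2.91 (adjusted p = 0.00883) and *Hsp60B* fell by 2.75 (adjusted p = 0.00468). The summed *Mst* count divided by the summed count of these 13 genes was 0.586, 0.639 and 0.609 in *ecd1*, against 0.621, 0.608 and 0.578 in *w1118*. This ratio overlapped between the genotypes (0.611 ± 0.0268 in *ecd1* and 0.602 ± 0.0220 in *w1118*, SD, n = 3 each), although either sum alone was about 5 times lower in *ecd1*. The ratio rests mainly on abundant genes. Of the mean *w1118* sum of 14355 for the 13 genes, *loopin-1* held 4111 and *betaTub85D* 3513.

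By the Pearson correlation of log2 values over the 6 samples, the genes closest to the mean *Mst* profile were *CG8701*, *CG9920*, *betaTub85D*, *CG3982*, *Fum2*, *loopin-1*, *CG15109*, *CG4836*, *CG46059* and *CG9010*, each with r of at least 0.999. Among them, *betaTub85D* encodes the testis-specific beta-tubulin and *loopin-1* a mitochondrial protein of the sperm tail. *betaTub85D* had 508, 374 and 1042 normalized counts in *ecd1*, against 3453, 2639 and 4449 in *w1118*. These values describe the likeness only, since the 6 samples form 2 separate groups and 903 of 10345 genes with a mean of at least 100 had r above 0.95.

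Among the regulators that switch these genes on, 5 of 12 meiotic arrest genes tested fell, against 19.1% of all genes tested. Their median was −0.83. Of the tTAF genes, *sa* fell by 1.90 (limma, adjusted p = 0.0130), *can* fell by 1.32 (adjusted p = 0.0446) and *mia* fell by 0.82 (adjusted p = 0.0102). Of the tMAC genes, *aly* fell by 1.24 (adjusted p = 0.0426) and *achi* by 0.84 (adjusted p = 0.00921), while *tomb* at −0.11 (adjusted p = 0.813) and *vis* at −0.09 (adjusted p = 0.885) did not pass, nor did the tTAF gene *Taf12L* at 0.08 (adjusted p = 0.895). The calls of *can* and *aly* were lost without *ecd1* replicate 1 or 2 or *w1118* replicate 2 or 3 (adjusted p of 0.112 to 0.144), and that of *sa* without *ecd1* replicate 2 (adjusted p = 0.0531). The count of 5 was 2 without *ecd1* replicate 2, and 3 without *ecd1* replicate 1, *w1118* replicate 2 or *w1118* replicate 3. Without *w1118* replicate 1, the library set apart by *Sgs3*, the count rose to 7 and the median was −0.94. With the replicate number as a block the count was 8.

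Of 7 genes for translational regulators of the male germ line, 3 fell, against 19.1% of all genes tested. The list holds both regulators of spermatocyte messages and factors such as *bgcn* and *tut*, which act earlier, in spermatogonia. *eIF4E3*, a testis cap-binding protein gene, fell by 1.76 (limma, adjusted p = 0.00939), *bgcn* fell by 1.57 (adjusted p = 0.0162) and *orb2*, an RNA-binding protein gene, fell by 0.97 (adjusted p = 0.0142). The count of 3 was 1 without *ecd1* replicate 2 and 5 without *w1118* replicate 1.

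The early germ line showed no call. None of 9 genes of germ cells and spermatogonia passed in limma, 0 at an unadjusted p below 0.05, and 0 passed with edgeR or DESeq2, while 1 fell with the replicate block and 1 without *w1118* replicate 1. The median log2 fold change was −0.40, or −0.56 without *w1118* replicate 1. Whether these messages came from male or female germ cells cannot be told, since the sex of the larvae is not stated. *vas*, a germ cell RNA helicase gene, had 240.4, 181.8 and 351.0 normalized counts in *ecd1*, against 113.1, 280.7 and 310.6 in *w1118*, with overlap. Summed over the 9 genes, the level was 62.1% to 85.8% of the *w1118* mean in *ecd1* and 93.5% to 109% in *w1118*, which did not overlap. This gap rested on *ovo*, a germ line transcription factor gene that other tissues also express, with 882, 605 and 671 normalized counts in *ecd1*, against 2079, 892 and 886 in *w1118*. Without it, the sum was 77.7%, 75.8% and 116.1% of the *w1118* mean in *ecd1*, against 61.9%, 115.3% and 122.9% in *w1118*, and the genotypes overlapped. The low *w1118* value was that of replicate 1, the library set apart by *Sgs3*. Apart from that library, only *ecd1* replicate 3 (116.1%) reached a *w1118* sample (115.3%).

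**Figure D4:**
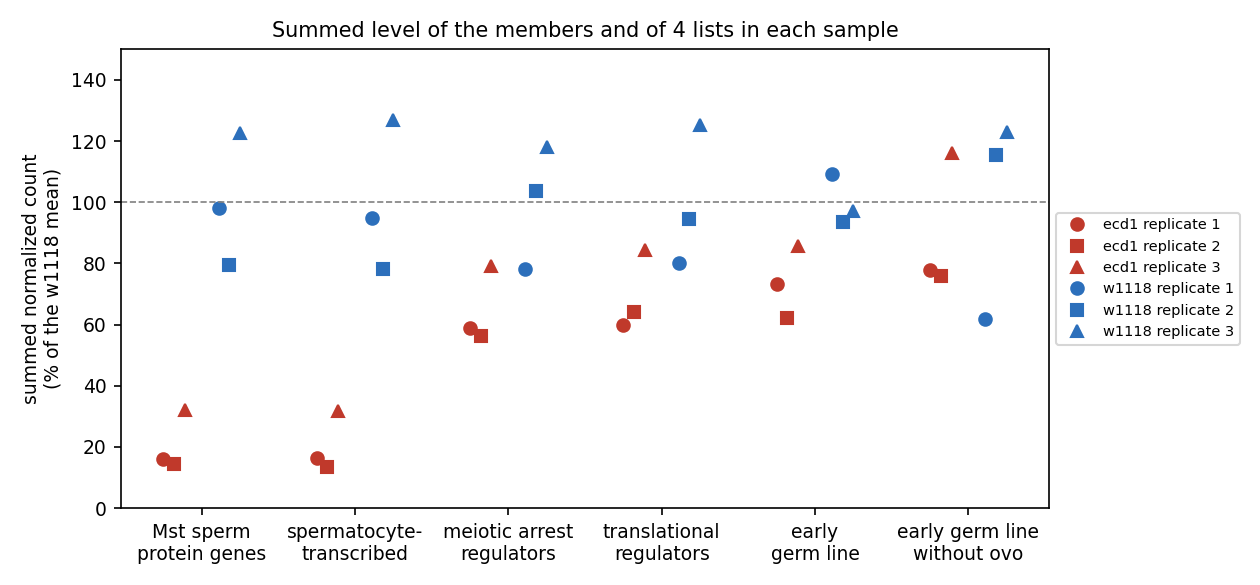
Summed normalized count of the 10 *Mst* genes and of 4 comparison lists, 1 of them also without *ovo*, in each sample, in percent of the *w1118* mean of that list (dashed line at 100%); red points are *ecd1*, blue points *w1118*. The *Mst* genes (14.5% to 32.1% in *ecd1*) and the spermatocyte-transcribed genes (13.6% to 31.6%) lie below every *w1118* sample. The sums of the meiotic arrest and translational regulators overlap between the genotypes only through *w1118* replicate 1 (78.1% and 80.2%). Their highest *ecd1* samples are at 79.0% and 84.3%. The other *w1118* samples are at 103.8% and 118.1% for the meiotic arrest genes and 94.5% and 125.3% for the translational regulators. The early germ line without *ovo* also overlaps (75.8% to 116% in *ecd1* and 61.9% to 122.9% in *w1118*). Its lowest *w1118* sample is replicate 1, and the other *w1118* samples are at 115.3% and 122.9%.

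Set against the summed counts of the early germ line and meiotic arrest lists, the *Mst* genes held a lower level in *ecd1*. The summed *Mst* count was 0.875 ± 0.272 times that of the early germ line genes in *ecd1* and 3.18 ± 0.711 times in *w1118*, or 1.36 ± 0.274 times in *ecd1* and 6.58 ± 2.76 times in *w1118* without *ovo*. It was 0.362 ± 0.0944 times that of the meiotic arrest genes in *ecd1* and 1.18 ± 0.285 times in *w1118* (SD, n = 3 each). None of these ratios overlapped between the genotypes, whereas the ratio to the spermatocyte-transcribed genes did. With 3 samples against 3, an exact permutation test could not give a p below 0.1 for such a ratio. Such sums weigh abundant genes most. In the meiotic arrest sum, with a *w1118* mean of 7435, *mip40* held 1603 and *achi* 1229. Which tissues of the larva gave the reads of these lists was not tested.

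**Figure D5:**
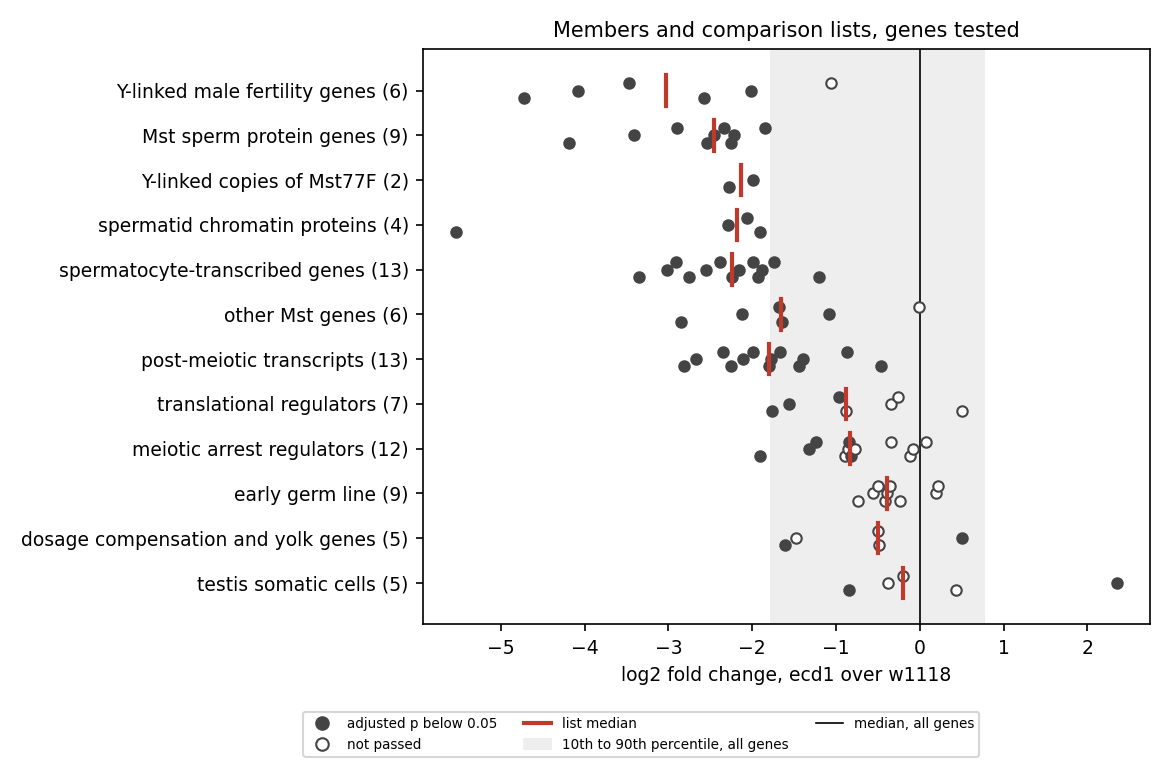
Log2 fold change (*ecd1* over *w1118*) of each gene tested in the *Mst* list and in all 11 comparison lists, with the number tested in brackets; filled points passed an adjusted p below 0.05 (limma), red bars are list medians, and the grey band runs from the 10th to the 90th percentile of all genes (−1.78 to 0.76). The lowest median is that of the Y-linked male fertility genes (−3.03), of which *kl-2*, *kl-3*, *kl-5* and *CCY* reached the filter only through *w1118*. The *Mst* genes have −2.46, and the testis somatic cell genes have −0.20.

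Since *Mst* messages come from males only, genes of male dosage compensation and yolk protein genes were read beside them. *roX2*, an RNA of the male dosage compensation complex, had 331.9, 255.1 and 474.7 normalized counts in *ecd1*, against 680.8, 1044 and 1619 in *w1118*, and fell by 1.61 (limma, adjusted p = 0.0150), a call lost without *ecd1* replicate 2 (adjusted p = 0.0579). *roX1*, its partner and by far the more abundant RNA, had 13268, 12582 and 18976 in *ecd1*, against 12275, 25844 and 28132.5 in *w1118*, with overlap (log2 fold change −0.50; adjusted p = 0.281). Overlap and missing call both rested on *w1118* replicate 1, the library set apart by *Sgs3*, without which *roX1* fell by 0.88 (limma, adjusted p = 0.0168) and no *ecd1* sample reached a *w1118* sample. *msl-2*, which encodes the male-limiting protein of the complex, rose by 0.51 (adjusted p = 0.0424), a call that held in only 1 of the 6 fits with a library left out.

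The yolk protein genes, which mark adult females, gave no call. *Yp2* and *Yp3* did not pass (adjusted p of 0.410 and 0.773), and *Yp1* had too few counts to test. The part of the ratio of males to females in the loss of *Mst* messages was not tested. Of 5 genes marking the somatic cells of the testis, 1 fell and 1 rose, where 2474 of all 12930 genes tested fell and 2064 rose. *tj*, a marker of cyst cells, had 63.2, 64.9 and 64.2 normalized counts in *ecd1*, against 77.4, 84.9 and 88.5 in *w1118*, with no overlap but no call (log2 fold change −0.38; adjusted p = 0.192). *zfh1*, which marks cyst cells and other tissues, pointed the other way, with 889, 1128 and 1440 in *ecd1*, against 875, 836 and 797.5 in *w1118*, again with no overlap and no call (0.44; adjusted p = 0.109). *Fas3*, a hub cell marker that other tissues also express, had −0.20 (adjusted p = 0.336). *eya* fell by 0.85 (adjusted p = 0.0477), a call lost whenever a library was left out, and *upd1*, which hub cells and other tissues express, rose by 2.35 (adjusted p = 0.00179).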

How the data were processed

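Total RNA of 3 *ecd1* and 3 *w1118* samples of 8 larvae was sequenced in read pairs. Per the labels, the authors used TopHat2 2.0.10 for alignment to dm6, featureCounts 1.6.4 for gene counts and DESeq2, of a version not stated, for normalization, so each deposited value is a signal, a count divided by a size factor. The deposited sequencing report gives the fraction of reads on 1 strand and the insert size. Deposited fold changes, p-values, GO enrichments and splicing changes, which hold the authors' own comparisons, were not used. The value of 1 read was recovered from the steps between low values, and 100% of values came out whole within 0.05 of a read. Identifiers of 17527 of 17606 genes matched Ensembl release 115 on dm6, which gave positions and exons.

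Genotypes were compared with limma 3.58.1 (with a trend, R 4.3.3) on log2(normalized count + 1) for 12930 genes with a mean of at least 10, with Benjamini-Hochberg adjustment. edgeR 4.0.16 and DESeq2 1.42.0 were alternatives on the recovered reads and called 2407 and 2937 genes as fallen. The other alternatives were other pseudocounts, filters and scalings, limma without a trend, the replicate block, and leaving out each sample. The fit was tested on simulated data. The members and lists were chosen with earlier results of these data known. Of each list, up to 4 genes past the threshold were named by the size of their change (means of 50 or more), with all other *Mst*, spermatid chromatin and dosage compensation and yolk genes, neighbours and copies of members, and the 10 genes most like them. *Taf12L*, *tomb*, *vis*, *vas*, *ovo*, *tj*, *zfh1*, *Fas3*, *mia*, *ecd*, *w*, *Sgs3* and *Mst84B* were named after their values were seen. So were *kl-3*, *kl-5*, *CCY*, *FDY*, *sunz*, *d-cup*, *t-cup*, *mip40* and *twe*. Same-numbered samples of the 2 genotypes deviated together (r of 0.209, 0.232 and 0.225, against −0.274 to 0.0541 between different numbers), so the numbers pair the samples by these values, not by the labels, and the block is given where it changes a count. The replicates are called biological by the study. Protein and promoter sequences were not analysed here.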

Additional observations from a re-analysis of the deposited data

How the results depend on the processing

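All 9 *Mst* genes tested kept their direction and an adjusted p below 0.05 under each of 16 alternatives (144 values), with log2 fold changes between −4.90 and −1.63 and adjusted p-values up to 0.0321, the values with a library left out included. The count of fallen genes was 9 throughout, or 10 with no filter on low values, where *Mst84Da* passed on reads under the floor. With a library left out the median lay between −2.77 and −2.21, and with the replicate block it was −2.46. In the comparison lists the counts moved more. Fallen meiotic arrest genes were 8 with DESeq2 and with the replicate block, 3 in limma without a trend and 2 to 7 with a library left out. Fallen early germ line genes were 1 with the replicate block and 0 to 1 with a library left out. The block changed no other call count by over 1.5 times. Fallen Y-linked fertility genes were 8 with no filter and 1 with a filter of 50, and their median of −3.03 was −1.72 with a pseudocount of 10, −1.54 with the filter of 50, −3.44 with edgeR and −3.55 with DESeq2. The summed early germ line level in *ecd1*, 73.8% of the *w1118* mean, was 89.9% without *ovo*, an alternative chosen after seeing the data. That *w1118* mean without *ovo* holds replicate 1 at 61.9%, against 115.3% and 122.9% in the other *w1118* samples. Fallen testis somatic genes were 0 with no filter, with TMM scaling, with edgeR and with any library left out (risen 1 to 2). Of the dosage compensation and yolk genes, 0 rose with scaling by total reads and in limma without a trend, and with a library left out 0 to 1 rose and 0 to 2 fell. Their median was −1.62 with edgeR, −1.66 with DESeq2 and −1.21 to −0.22 with a library left out. With a library left out, fallen translational regulators were 1 to 5, post-meiotic genes 7 to 13 and Y-linked *Mst77F* copies 1 to 2. The cause of these shifts was not tested. Depth limited *Mst84Da* and the Y-linked genes, and the log2(normalized count + 1) scale understates changes of such low genes.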

Other observations

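The post-meiotic list holds the comet and cup genes, which are known to be transcribed anew in spermatids. Which cells gave their reads in these larvae was not tested. Of 13 tested all 13 fell, with a median log2 fold change of −1.80 and the smallest loss at −0.47. *sunz*, *d-cup* and *t-cup* had *ecd1* means of 6.33, 4.84 and 3.72. They reached the mean of 10 only through *w1118*, so the filter favoured their fall. With a filter of 50, which leaves them out, 10 of 10 fell. *soti* fell by 2.67 (limma, adjusted p = 0.0037), *schuy* fell by 2.26 (adjusted p = 0.00607), *p-cup* fell by 2.11 (adjusted p = 0.0126) and *whip* fell by 1.80 (adjusted p = 0.00509). The count of 13 was 7 without *ecd1* replicate 2 and 7 without *w1118* replicate 3.

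The Y-linked genes for male fertility were low in whole larvae, and 5 of 6 tested fell. Of these, *ARY*, with a mean of at least 50, fell by 2.02 (limma, adjusted p = 0.0121). *kl-2*, a dynein heavy chain gene of the sperm tail, had 0.943, 0.764 and 1.19 normalized counts in *ecd1*, against 57.1, 34.2 and 67.2 in *w1118*. It was chosen after its values were seen.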
